A study of Mus musculus with 20 samples.

Results

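The thrombin receptors and the G proteins and arrestin that act with them were followed through the RiboTag translatome of Py8119 mammary tumors. They were chosen by name as the 4 protease-activated receptor genes F2r, F2rl1, F2rl2 and F2rl3, the 4 G alpha subunit genes Gnaq, Gna11, Gna12 and Gna13, the G gamma subunit gene Gng2 and the beta-arrestin gene Arrb1, 10 of the 55866 genes in the count table. Of these, 9 had counts, and F2rl2 was listed at 0 in every library.

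Protease-activated receptors are cell surface receptors that a protease switches on by cutting the receptor's own N-terminus, whose new end then binds the receptor as a tethered ligand. Thrombin cuts F2r (PAR1), F2rl2 (PAR3) and F2rl3 (PAR4), while F2rl1 (PAR2) is cut mainly by trypsin-like proteases and by the tissue factor and factor VIIa complex. The receptors signal through Gq family subunits, which activate phospholipase C beta and release calcium, and through G12 family subunits, and arrestins bind the activated receptor. In blood vessels this pathway is known for opening endothelial junctions during coagulation and inflammation.

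The mice were female Rpl22HA/HA x Cdh5CreERT2 animals on the C57BL/6J background (RiboTagEC mice), in all of which tamoxifen at 75 mg/kg for 5 days from 3 weeks of age led endothelial cells to carry a hemagglutinin tag on the ribosomal protein Rpl22. Py8119 murine breast carcinoma cells were implanted in the mammary fat pad at 8 weeks, and 25 mg/kg of 6-3-A6, a mouse antibody against Notch4, or control mouse IgG was given into a vein over 10 days. From each tumor the homogenate (input) and the anti-HA immunoprecipitate (IP), which holds ribosome-bound mRNA of cells in which the Cdh5-driven Cre had been active, were sequenced. There were 5 tumors per treatment and therefore 4 groups of 5 libraries, with totals between 11881214 and 26728205 counts on genes.

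All 17 endothelial marker genes were higher in IP, with a median log2 fold change over input of 4.52, among them Cdh5 at 4.36 and Pecam1 at 4.12. Macrophage, fibroblast and epithelial transcripts were nonetheless present in every IP library, and the summed level of 13 macrophage markers, of which Itgam was at 0, was between 3456 and 9047 CPM in 6-3-A6 IP and between 4756 and 7864 CPM in control IgG IP. CPM here are counts scaled to the library total with TMM factors. An endothelial score was taken as the average log2 CPM of the endothelial list less that of the macrophage, fibroblast and epithelial lists, and it ranged from -0.29 to 3.09 among the IP libraries. The study compared 6 of the 10 IP libraries after it had set aside outliers on a PCA, namely control IgG 2, 4 and 5 and 6-3-A6 1, 3 and 4. Among these 6 the control IgG libraries scored 0.486 ± 0.687 (SD, n = 3) and the 6-3-A6 libraries 2.58 ± 0.085, with a 2-sided exact permutation p of 0.1, the smallest that 3 against 3 allows. Over all 10 IP libraries it was 1.33 ± 1.30 and 1.82 ± 1.15 (n = 5 each; exact permutation p = 0.524). Among input libraries 6-3-A6 4 had the lowest score and the lowest TMM factor, 0.781. The level of a gene in IP or input mixes the number of cells that hold its RNA with the RNA per cell. In IP it also depends on the share of that RNA bound to ribosomes. These cannot be told apart here.

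The receptor genes lie in 2 places. In the GRCm39 positions of the count table, F2rl1 (chromosome 13, 95648240 to 95661735, minus strand), F2r (95738311 to 95754995, minus strand) and F2rl2 (95833361 to 95839247, plus strand) form a cluster of 191008 bases, whereas F2rl3 stands alone on chromosome 8 (73488508 to 73490502, plus strand). F2rl2 lies wholly inside Iqgap2, which runs on the opposite strand from 95763682 to 96028991, and 100% of its span is shared with it. The genes Serpind1, Gnaz, Gnb2 and Gng3 of the related lists had 0 counts and are likewise overlapped over 100% of their spans, Gng10 over 99.8%. They were picked for their 0 counts, and the share of overlapped genes among those with counts was not computed. Over the whole series, 30494 of 55866 genes had at least 1 count. Whether overlap produced the 0 of F2rl2 was not tested, and this 0 is not read as absence of expression.

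RefSeq promoter windows (GRCm38.p6, from 250 bases before to 50 bases after the annotated start) were found for 8 of the 10 genes, with F2rl1 and Arrb1 not matched. They were searched on both strands for the core letters GGAAGT of ETS sites, AGATAA of GATA sites and ACAAAG of SOX sites, which are held by 23.77%, 11.18% and 18.71% of 32851 mouse promoter windows and do not overlap one another in the windows printed. The windows of F2rl3 (chr8:72761409-72761708, plus strand) and F2r (chr13:95618417-95618716, minus strand) are shown because these are the thrombin receptors with counts. Capitals mark the matches.
F2rl3: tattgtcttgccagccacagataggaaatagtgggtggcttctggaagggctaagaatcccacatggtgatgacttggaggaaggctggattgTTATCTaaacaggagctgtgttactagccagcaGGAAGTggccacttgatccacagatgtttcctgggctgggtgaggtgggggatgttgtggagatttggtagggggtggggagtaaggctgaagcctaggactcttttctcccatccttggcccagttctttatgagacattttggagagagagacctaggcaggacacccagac
F2r: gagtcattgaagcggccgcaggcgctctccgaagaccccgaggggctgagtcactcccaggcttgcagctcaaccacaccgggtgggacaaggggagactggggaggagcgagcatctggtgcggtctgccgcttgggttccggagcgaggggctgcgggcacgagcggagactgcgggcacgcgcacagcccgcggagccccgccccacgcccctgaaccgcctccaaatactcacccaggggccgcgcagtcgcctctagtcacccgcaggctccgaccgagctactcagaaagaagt
The F2rl3 window holds the ETS letters 124 bases before the start and the GATA letters on the reverse strand 157 bases before it, has no CpG and is 51.3% G and C. The F2r window holds 28 CpG and 68.7% G and C and none of the letters searched, against a median G and C content of 52.7% over all windows. Of the other windows, that of Gna12 holds the ETS letters and that of F2rl2 the GATA and SOX letters, and those of Gnaq, Gna11, Gna13 and Gng2 hold none.

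The first comparison asked where the receptors stood in endothelial ribosomes against the whole tumor. F2rl3, the low-affinity thrombin receptor that also responds on platelets, was the receptor raised in IP, by 18.0-fold, while F2r and F2rl1 did not pass the test. Among G protein genes Gnaq, Gna11 and Gng2 were raised by 1.22-fold to 1.52-fold, and Arrb1 was raised by 3.14-fold. In all, 5 of the 9 genes tested were called higher and 0 lower by edgeR's quasi-likelihood test (adjusted p under 0.05), where 41.2% of 13582 genes were called in either direction and 19.8% higher. Their median log2 fold change was 0.29 against -0.05 over all genes tested.

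F2r, the main thrombin receptor of endothelium, was read at 81.6, 67.3, 87.2, 79.6 and 90.9 CPM in control IgG input 1 to 5 and at 105.3, 116, 132, 96.1 and 74.1 CPM in control IgG IP. In 6-3-A6 it was 108.0, 72.9, 67.6, 64.5 and 61.2 CPM in input and 112, 42.8, 97.5, 91.8 and 92.4 CPM in IP. The fractions overlapped, with the lowest value of all in 6-3-A6 IP 2 and 8 of 10 tumors higher in IP than in their own input. Relative to input, the log2 fold change in IP was 0.22 (SE 0.15, 95% interval -0.09 to 0.52; edgeR adjusted p = 0.239).

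F2rl3 was all but absent from the homogenates. Control IgG input gave 0.754, 0.899, 0.417, 0.288 and 0.322 CPM, and 6-3-A6 input 0.620, 0.638, 0.502, 0 and 0.537 CPM, from 85 counts over the 10 libraries (40 and 45). The 0 in 6-3-A6 input 4 allows up to 0.273 CPM at 3 counts, which covers counting error only. Control IgG IP stood at 20.1, 8.85, 13.8, 3.16 and 4.85 CPM, and 6-3-A6 IP at 10.3, 3.55, 11.2, 14.9 and 6.46 CPM. Every IP library was above every input library, a separation in this direction that 5.18% of genes tested had. IP was between 5.57-fold and 33.0-fold above input in the 9 tumors with input counts (median 15.1-fold) and at least 54.7-fold higher in 6-3-A6 4. The fitted log2 fold change was 4.17 (SE 0.39; edgeR adjusted p = 2.4e-08), near that of Pecam1, and it ranged from 3.98 to 4.31 when each tumor was left out in turn. F2rl3 is also a platelet gene, and of 12 platelet and megakaryocyte markers only 4 passed the filter, with 0 called higher and 1 lower in IP and a median log2 fold change of -0.52. The summed level of the 12 was 55.4 to 108 CPM in control IgG input and 33.1 to 71.6 CPM in control IgG IP. In 6-3-A6 it was 66.4 to 103 CPM and 44.1 to 60.7 CPM. Most of this sum was Pf4, with means of 72.6 and 44.2 CPM in control IgG input and IP and 76.8 and 41.3 CPM in 6-3-A6. Of the 4 tested, 3 had negative log2 fold changes and 1 a positive one. Gp1ba had means of 1.23 and 1.88 CPM in control IgG input and IP and 2.18 and 2.33 CPM in 6-3-A6. Whether platelet RNA adds to F2rl3 was not tested. Gp6 was at 0 throughout control IgG IP, with 3 counts in control IgG input, and Gp1bb was at 0 throughout 6-3-A6 input, with 5 counts in 6-3-A6 IP.

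F2rl1 was low in both fractions. Its values ran from 0.667 to 11.4 CPM in control IgG input (median 2.88), from 1.32 to 4.70 in control IgG IP (2.69), from 1.95 to 6.45 in 6-3-A6 input (3.23) and from 1.72 to 3.83 in 6-3-A6 IP (2.87). The highest value was in control IgG input 1, and the fractions overlapped. IP was higher in 3 of 10 tumors, and the log2 fold change was -0.52 (SE 0.35, 95% interval -1.25 to 0.22; edgeR adjusted p = 0.246), or -0.25 without control IgG tumor 1.

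**Figure D1:**
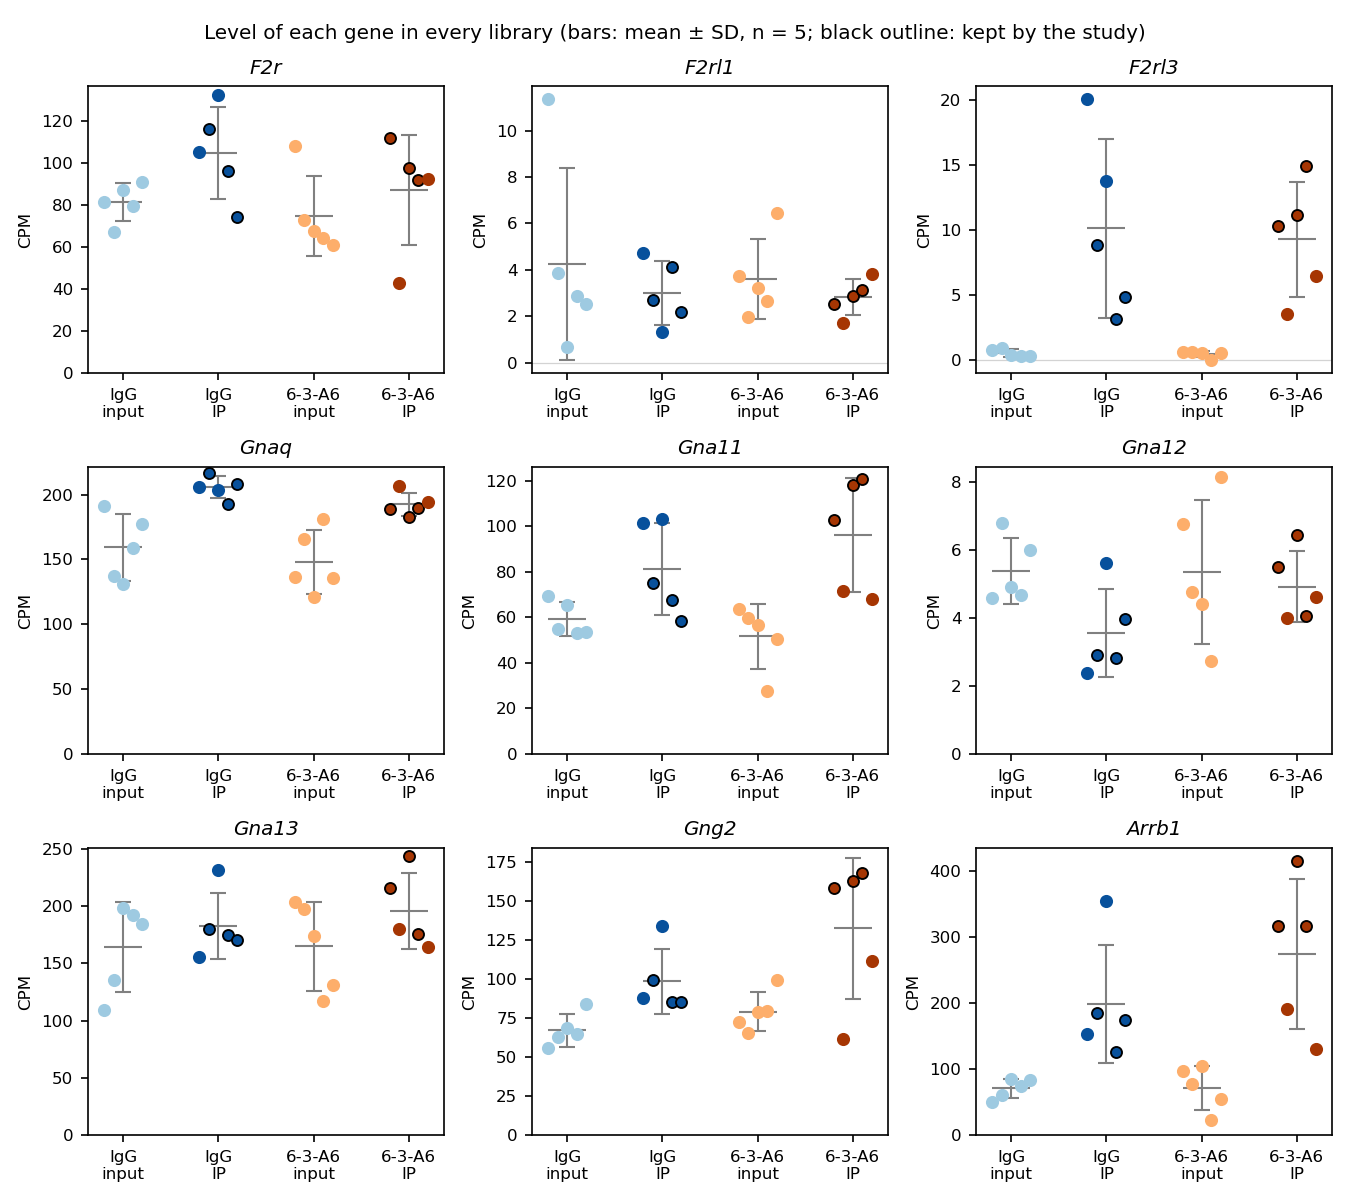
Level of each of the 9 genes with counts, in TMM-scaled CPM on linear axes, in the 20 libraries grouped by treatment and fraction; grey bars are the mean ± SD of 5 libraries and black outlines mark the 6 IP libraries kept by the study. F2rl3 and Arrb1 are the genes of these 9 whose IP libraries all lie above their input libraries, as for 5.18% of all genes tested.

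The 4 G alpha genes had log2 fold changes of IP over input between -0.43 and 0.60. Gnaq, the Gq subunit that activates phospholipase C beta, was 191, 137, 131, 159 and 177 CPM in control IgG input and 206, 217, 204, 193 and 208 CPM in control IgG IP. In 6-3-A6 it was 136, 166, 121, 181 and 136 CPM in input and 189, 207, 183, 189 and 194 CPM in IP. The IP values lay close together (SD 8.47 and 8.92 CPM), and IP exceeded the input of the same tumor in 10 of 10 tumors although the groups overlapped. The log2 fold change of 0.29 (SE 0.10; edgeR adjusted p = 0.0301) lost its call without control IgG tumor 2 or 3 or without 6-3-A6 tumor 1, 2, 3 or 5, with values from 0.26 to 0.28.

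Gna11, the close relative of Gnaq that serves the same effectors, was 69.3, 54.9, 65.6, 53.1 and 53.7 CPM in control IgG input and 101, 75.1, 103, 67.5 and 58.5 CPM in control IgG IP. In 6-3-A6 it was 63.8, 59.5, 56.7, 27.9 and 50.3 CPM in input and 103, 71.6, 118, 121 and 67.9 CPM in IP. It too was higher in IP in 10 of 10 tumors, by 1.09-fold to 4.34-fold, the latter in 6-3-A6 tumor 4 with its low input. The log2 fold change was 0.60 (SE 0.15; edgeR adjusted p = 0.00324) and 0.51 without that tumor.

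The G12 family genes did not pass. Gna13 was measured between 109 and 204 CPM in input and between 156 and 244 CPM in IP, with a log2 fold change of 0.13 (95% interval -0.13 to 0.39; edgeR adjusted p = 0.406). Gna12 was between 2.73 and 8.14 CPM in input and between 2.38 and 6.44 CPM in IP, and was lower in IP in 7 of 10 tumors. Its log2 fold change was -0.43 (SE 0.20; edgeR adjusted p = 0.0794), and it was called lower, at -0.54, when 6-3-A6 tumor 3 was left out. In GENCODE vM21, 79.4% of the exon length of Gna12 is overlapped by Amz1 on the other strand, and whether reads there were counted was not tested.

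Gng2, a G gamma subunit, which pairs with a G beta subunit in the beta-gamma dimer, was 55.8, 62.5, 68.5, 65.0 and 84.0 CPM in control IgG input and 87.9, 99.5, 134, 85.3 and 85.5 CPM in control IgG IP. In 6-3-A6 it was 72.5, 65.4, 78.9, 79.3 and 99.1 CPM in input and 159, 61.9, 163, 168 and 112 CPM in IP. IP was higher in 9 of 10 tumors, the exception being 6-3-A6 tumor 2, and the fractions overlapped. In GENCODE vM21, 20.4% of the exon length of Gng2 is overlapped by Gm48283. The log2 fold change was 0.56 (SE 0.15; edgeR adjusted p = 0.00549).

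Arrb1 encodes beta-arrestin 1, which binds activated receptors and takes part in their desensitization and in signaling from F2r. It was 49.7, 61.2, 85.3, 74.5 and 82.7 CPM in control IgG input and 153, 185, 354.5, 126 and 175 CPM in control IgG IP. In 6-3-A6 it was 96.8, 77.6, 105.0, 23.0 and 54.0 CPM in input and 317, 192, 416, 318 and 130.0 CPM in IP. All IP libraries lay above all input libraries, as for 5.18% of genes, and control IgG IP 3 stood far above the other control IgG IP libraries. The ratio within a tumor was between 1.69 and 13.8 (median 3.06), the largest in 6-3-A6 tumor 4, whose input was the lowest. The log2 fold change was 1.65 (SE 0.24; edgeR adjusted p = 1.7e-05) and 1.54 without that tumor. Arrb2, the other beta-arrestin gene, had a log2 fold change of -0.34 (SE 0.19; edgeR adjusted p = 0.147), and it is named here after its value was seen.

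**Figure D2:**
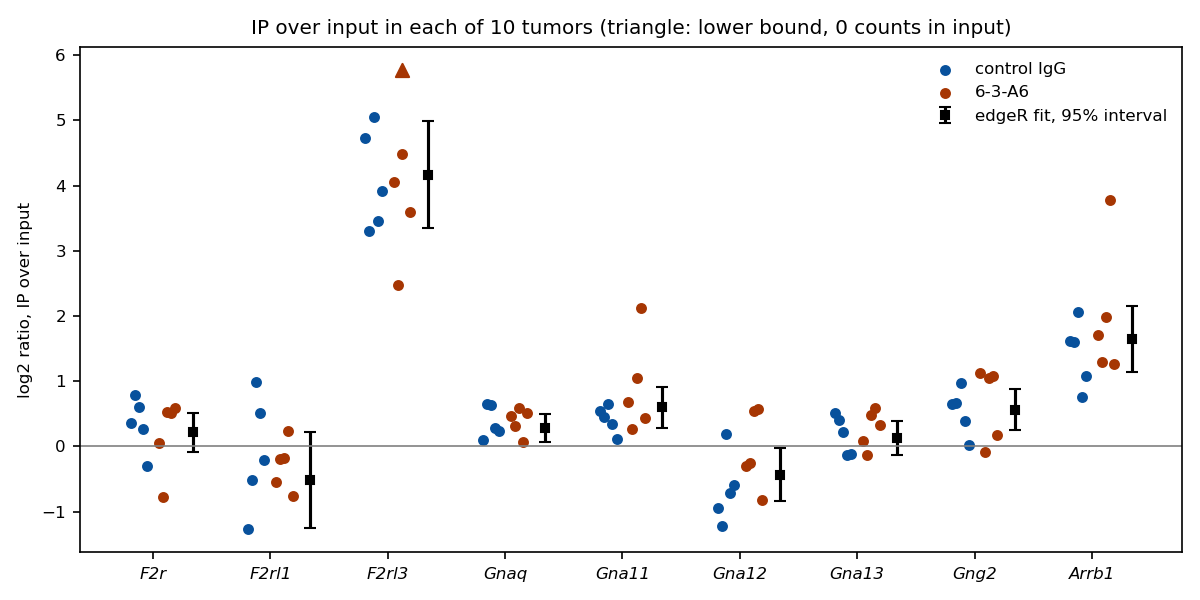
Log2 ratio of IP over the input of the same tumor for each gene in the 10 tumors, colored by treatment, with the fitted edgeR log2 fold change and its 95% interval as black squares; the triangle is a lower bound for a tumor with 0 input counts of F2rl3. All tumors lie above 0 for F2rl3, Gnaq, Gna11 and Arrb1.

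Levels of different genes are comparable only per length. The length in the count table is the whole gene span, introns included, which for Gnaq is 254633 bases against 6185 bases of exon in GENCODE vM21, so the order depends on the length used. Per kilobase of exon in control IgG IP the order of mean levels was Gnaq (33.2 ± 1.37 CPM per kilobase, SD, n = 5), F2r (31.4 ± 6.55), Gna13 (28.4 ± 4.50), Gng2 (22.4 ± 4.74), Gna11 (19.8 ± 4.94), Arrb1 (17.8 ± 8.06), F2rl3 (5.08 ± 3.46), F2rl1 (1.09 ± 0.509) and Gna12 (1.04 ± 0.379). Neighbors in this order overlapped in their ranges, except Arrb1 and F2rl3 (11.2 to 31.7 against 1.58 to 10.1). Over the exon length that no other gene overlaps, a length chosen after the data were seen, Gna12 was at 5.03 ± 1.84, overlapping F2rl3 and above F2rl1, and Gng2 was at 28.2 ± 5.96, so the last place of Gna12 rests on the length used. Per kilobase of span F2r came first at 6.28 ± 1.31 and F2rl3 second at 5.08 ± 3.46. In 6-3-A6 IP the order of means per kilobase of exon was Gnaq (31.1 ± 1.44), Gna13 (30.5 ± 5.17), Gng2 (30.2 ± 10.3), F2r (26.2 ± 7.84), Arrb1 (24.6 ± 10.1), Gna11 (23.5 ± 6.14), F2rl3 (4.66 ± 2.21), Gna12 (1.44 ± 0.307) and F2rl1 (1.03 ± 0.282), and neighbors overlapped except Gna11 and F2rl3. Per kilobase of span Gna11 came first there, at 5.84 ± 1.53, and F2rl3 the fourth, at 4.66 ± 2.21. In control IgG input F2rl3 was last by exon length, at 0.269 ± 0.138.

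Around the receptors, the genes of thrombin generation and its restraint were spread in both directions. Of 13 genes 9 were tested, 4 were called higher in IP and 3 lower (19.8% and 21.4% of all genes), with a median log2 fold change of 0.37. Those higher were Tfpi2 (2.16) and Tfpi (1.85), inhibitors of the tissue factor pathway, and, of the protein C pathway, the receptor Procr (1.37) and the cofactor Pros1 (0.70), whereas F3, which encodes tissue factor (-0.88), and the coagulation factor genes F10 (-0.84) and F7 (-0.78) were lower. The thrombin gene F2 itself did not reach the filter, at 0.039 ± 0.037 CPM in control IgG input and 0.009 ± 0.021 CPM in control IgG IP. Thbd, which encodes the thrombin-binding protein thrombomodulin, was 67.3 ± 16.3 CPM in control IgG input and 94.8 ± 32.4 CPM in control IgG IP, with a log2 fold change of 0.37 (edgeR adjusted p = 0.102). Procr, Pros1, F7, F2 and Thbd were named after their values were seen.

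G protein subunits differed within each family. Of 7 other G alpha genes tested, 3 were called higher and 1 lower, where 19.8% and 21.4% of all genes were. Gnai1, an inhibitory subunit, had a log2 fold change of 3.12 and went from 1.13 ± 0.445 CPM in control IgG input to 10.4 ± 3.82 CPM in control IgG IP. Gnai2 (0.53) and Gnai3 (0.38) were also higher, and Gnas (-0.42), the stimulatory subunit, was lower. Of 3 G beta genes, Gnb4 (1.88) and Gnb1 (0.35) were higher, and of 5 other G gamma genes, Gng11 (2.69) and Gngt2 (1.21) were higher and Gng7 (-0.70) was lower. For Gnai1, Gnb4 and Gng11 no IP library overlapped an input library, as for 5.18% of genes in this direction.

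Regulators and effectors completed the pathway. Of 12 genes of receptor desensitization and RGS proteins, which switch G alpha off, Rgs3 was called higher (1.93) and Rgs2 lower (-0.54), against 41.2% of all genes called in either direction, and the median was -0.10. Of 12 Gq effectors 8 were called higher and 2 lower, against 19.8% and 21.4% of all genes, with a median of 0.50. The largest were the phospholipases Plcb4 (0.79) and Plcb3 (0.73), and the lowest was Prkca, a protein kinase C (-2.48). Prkca varied widely in input, at 258 ± 257 CPM in control IgG and 734 ± 863 CPM in 6-3-A6. Of 8 effectors of the G12 family 5 were called higher and 0 lower, against the same shares of all genes, with a median of 0.68.

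**Figure D3:**
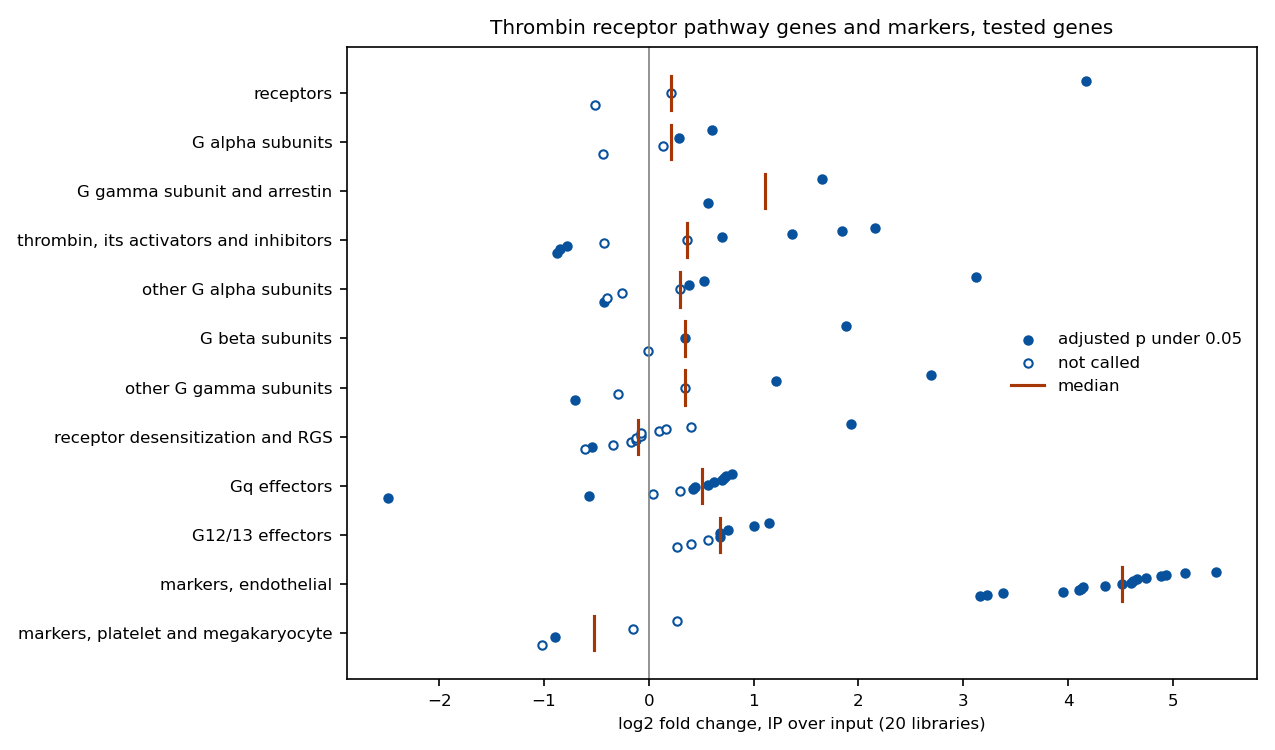
Log2 fold change of IP over input for every tested gene of the thrombin receptor pathway lists and of the endothelial and platelet marker lists; filled points passed an adjusted p of 0.05 and red lines are list medians. F2rl3 at 4.17 lies within the range of the endothelial markers, 3.16 to 5.41, and Arrb1 at 1.65 lies below it.

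The second comparison asked what 6-3-A6 changed in the IP fraction. In the 6 libraries that the study kept, Arrb1, Gng2 and Gna11 were called higher in 6-3-A6 and 0 of the 9 genes lower, where 4.61% of 13999 genes were called in either direction, 2.57% higher and 2.04% lower. No receptor gene was among them. The members were chosen with the calls of Arrb1, Gng2 and Gna11 already known. Their number therefore cannot be read as an excess over these shares. Over all 10 IP libraries 0 of 9 genes were called, and 0 of all 13602 genes by edgeR or by DESeq2, with 292 genes (2.15%) at an unadjusted p under 0.05 in edgeR and none of the 9 among them. The 6 libraries are part of the 10, so the comparisons share samples.

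Arrb1 in the kept libraries was 185, 126 and 175 CPM in control IgG 2, 4 and 5 and 317, 416 and 318 CPM in 6-3-A6 1, 3 and 4, means of 162 ± 32.0 and 350.3 ± 56.7 (SD, n = 3). These groups did not overlap, which held for 13.5% of genes with 6-3-A6 higher. The log2 fold change was 1.08 (SE 0.23; edgeR adjusted p = 0.0286). The libraries set aside gave 153 and 354.5 CPM in control IgG 1 and 3 and 192 and 130.0 CPM in 6-3-A6 2 and 5, the reverse order at the extremes, and with them the log2 fold change was 0.46 (SE 0.33, 95% interval -0.25 to 1.17; adjusted p = 1).

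Gng2 was 99.5, 85.3 and 85.5 CPM in the kept control IgG libraries and 159, 163 and 168 CPM in the kept 6-3-A6 libraries, with means of 90.1 ± 8.15 and 163 ± 4.58. The groups stood apart, as for the same 13.5% of genes, and the log2 fold change was 0.82 (SE 0.18; edgeR adjusted p = 0.0302). Of the libraries set aside, control IgG 3 reached 134 CPM and 6-3-A6 2 was the lowest of all at 61.9 CPM, so that the groups overlapped over 10 libraries, where the log2 fold change was 0.42 (95% interval -0.11 to 0.95; edgeR adjusted p = 1).

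Gna11 was 75.1, 67.5 and 58.5 CPM in the kept control IgG libraries against 103, 118 and 121 CPM in 6-3-A6, means of 67.0 ± 8.31 and 114 ± 9.84. The groups did not overlap (13.5% of genes), and the log2 fold change was 0.73 (SE 0.18; edgeR adjusted p = 0.0459). Control IgG 1 and 3, set aside, were at 101 and 103 CPM and 6-3-A6 2 and 5 at 71.6 and 67.9 CPM, which placed each pair at the level of the other treatment, and the log2 fold change over 10 libraries was 0.24 (95% interval -0.22 to 0.69; edgeR adjusted p = 1).

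These calls were lost when single libraries were left out of the 6. Arrb1 and Gng2 lost theirs once control IgG IP 4 or 6-3-A6 IP 1, 3 or 4 was dropped, with log2 fold changes of 0.94 to 1.16 and 0.82 to 0.83, and Gna11 lost its call whichever of the 6 was dropped, with log2 fold changes of 0.65 to 0.85. Over the same 6 libraries 17 of 17 endothelial markers had positive log2 fold changes (6 called higher, median 0.93). Negative ones were held by 12 of 12 macrophage markers (6 called lower, median -0.93), 9 of 10 fibroblast markers (2 lower, -0.83) and 6 of 6 epithelial markers (2 lower, -0.98). They were also held by 7 of 9 mural markers (1 called higher and 1 lower, -0.56) and 5 of 5 lymphoid markers (0 called, -0.60). The 4 platelet markers tested were positive (0 called, 0.45), and the median of the 9 genes was 0.68. With the endothelial score as a covariate 0 of 13999 genes were called (646 at an unadjusted p under 0.05), and the log2 fold changes were 0.11 for Arrb1, 0.58 for Gng2 and 0.65 for Gna11. In these 6 libraries the scores of the treatments did not overlap, and score and treatment cannot be told apart.

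Among receptors, F2rl3 in the kept libraries was 8.85, 3.16 and 4.85 CPM in control IgG and 10.3, 11.2 and 14.9 CPM in 6-3-A6. The groups did not overlap, as for 13.5% of genes in this direction, but the log2 fold change of 1.07 (SE 0.33; edgeR adjusted p = 0.0990) was not called. It was called by DESeq2 (adjusted p = 0.0268), without a filter on low counts (edgeR adjusted p = 0.00207) and without control IgG IP 2 (1.58; edgeR adjusted p = 0.0198). With the endothelial score as a covariate the direction turned, at -0.91 (edgeR adjusted p = 0.865). Over 10 libraries, where control IgG IP 1 held the highest value of 20.1 CPM, the log2 fold change was -0.14 (95% interval -1.16 to 0.89; edgeR adjusted p = 1).

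F2r was 95.5 ± 21.1 CPM in the kept control IgG libraries and 100.4 ± 10.3 CPM in the kept 6-3-A6 libraries (log2 fold change 0.04, 95% interval -0.42 to 0.50; edgeR adjusted p = 0.939). F2rl1 was 2.99 ± 1.01 and 2.84 ± 0.283 CPM (-0.10, 95% interval -0.79 to 0.60; edgeR adjusted p = 0.903). For both the treatments overlapped, and over 10 libraries the log2 fold changes were -0.27 and -0.09. Gnaq was 206 ± 11.9 against 187 ± 3.45 CPM, with no overlap, the 6-3-A6 libraries being the lower ones as for 10.5% of genes, and a log2 fold change of -0.18 (95% interval -0.57 to 0.22; edgeR adjusted p = 0.653). Gna12 was 3.24 ± 0.633 against 5.33 ± 1.20 CPM, also without overlap (13.5% of genes with 6-3-A6 higher). Its log2 fold change was 0.68 (95% interval 0.04 to 1.31; edgeR adjusted p = 0.222). Gna13 was 175 ± 4.92 against 212 ± 34.3 CPM (0.24, 95% interval -0.20 to 0.68; edgeR adjusted p = 0.565). Over 10 libraries the treatments overlapped for Gnaq, Gna12 and Gna13. The log2 fold changes there were -0.10 for Gnaq, 0.47 for Gna12 (95% interval -0.11 to 1.05) and 0.10 for Gna13.

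Of the 56 related genes tested, 4 (7.14%) were called in the 6 libraries, all higher in 6-3-A6, where 4.61% of all genes were called and 2.57% called higher. They were Gng11 (1.34; 105 ± 29.5 against 274.5 ± 82.3 CPM), Gnb4 (1.05; 69.2 ± 13.5 against 147 ± 26.5 CPM), Gngt2 (1.01; 26.3 ± 4.43 against 54.3 ± 12.0 CPM) and Rgs3 (0.79; 37.2 ± 6.53 against 66.1 ± 9.50 CPM). Of the 12 Gq effectors 0 were called and 11 had negative log2 fold changes (median -0.40), where 7691 of 13999 genes did. Of the 8 effectors of the G12 family, 7 other G alpha genes and 9 genes of thrombin generation 0 were called. Over all 10 IP libraries 0 genes of any of these lists were called. There 7 of the 12 Gq effectors had negative log2 fold changes (median -0.05), as did 6569 of 13602 genes.

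**Figure D4:**
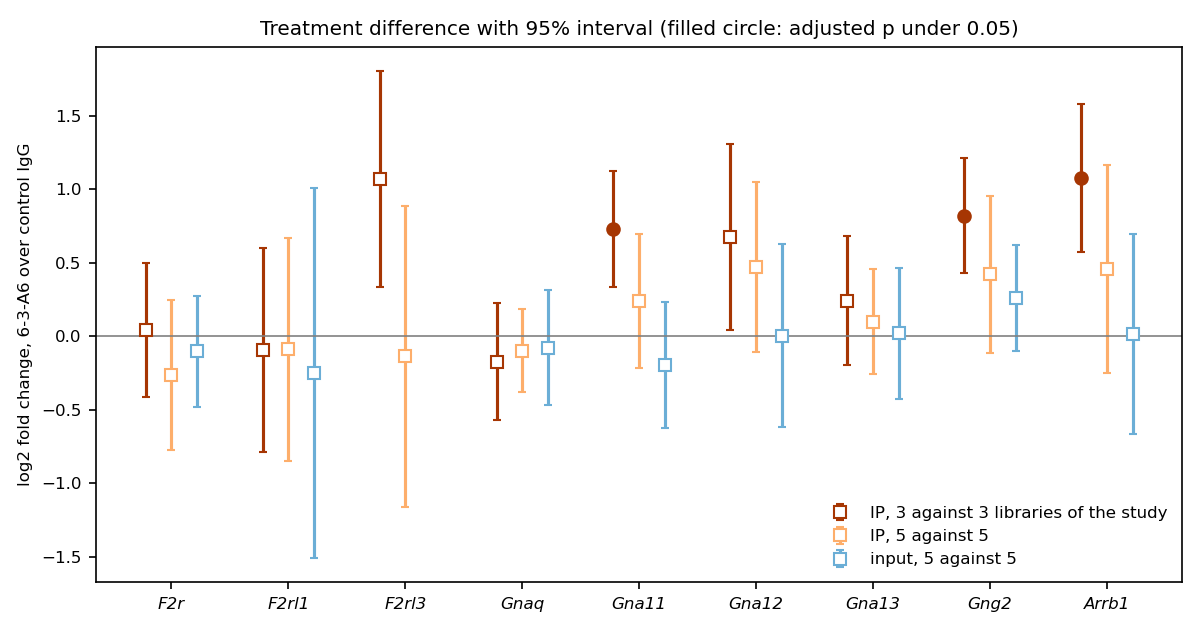
Log2 fold change of 6-3-A6 over control IgG for each gene with its 95% interval, in the 3 against 3 IP libraries that the study kept, in 5 against 5 IP libraries and in 5 against 5 input libraries; filled circles passed an adjusted p of 0.05. Arrb1, Gng2 and Gna11 pass in the kept libraries and no gene passes in the others, and F2rl3 was not tested in input.

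In the homogenate 0 of the 8 genes tested were called between the treatments, and 0 of 13683 genes by edgeR or DESeq2 (180 at an unadjusted p under 0.05 in edgeR, 1.32%). The log2 fold changes lay between -0.25 (F2rl1) and 0.26 (Gng2), and F2rl3 did not pass the filter. The difference of the treatment effects between IP and input was called for 0 of the 9 genes and 0 of 14488 genes by edgeR or DESeq2 (125 unadjusted in edgeR, 0.863%), and it was 0.45 for Arrb1 (95% interval -0.54 to 1.45), 0.44 for Gna11 (-0.18 to 1.05) and 0.16 for Gng2 (-0.48 to 0.80).

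Within the IP fraction the members were set beside the endothelial score, each of 13602 genes being tested and adjusted over all of them. Over the 10 IP libraries Pearson's r between log2 CPM and the score was 0.890 for F2rl3, 0.858 for Gna11, 0.837 for Gng2 and 0.774 for Arrb1, and 6.18% of genes had an r at least as high as that of Arrb1. Permutation p-values for these 4 were 0.00152, 0.00420, 0.00396 and 0.0111, and none passed the adjustment (0.0635, 0.0914, 0.0889 and 0.144), which 1.54% of genes did, 1.41% with a positive r. Spearman's coefficient was 0.830, 0.867, 0.867 and 0.770, with permutation p-values of 0.00442, 0.00238, 0.00220 and 0.0126, or 0.126, 0.101, 0.0996 and 0.173 adjusted. Without the 2 libraries farthest from the median score, control IgG IP 4 and 6-3-A6 IP 2, r was 0.738, 0.912, 0.760 and 0.792. For the other members r was 0.606 for F2r, 0.558 for Gna13, 0.543 for Gna12, -0.144 for F2rl1 and -0.384 for Gnaq, with adjusted permutation p-values between 0.342 and 0.877. No correlation was computed within a treatment, which holds 5 IP libraries, so these values mix both treatments.

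**Figure D5:**
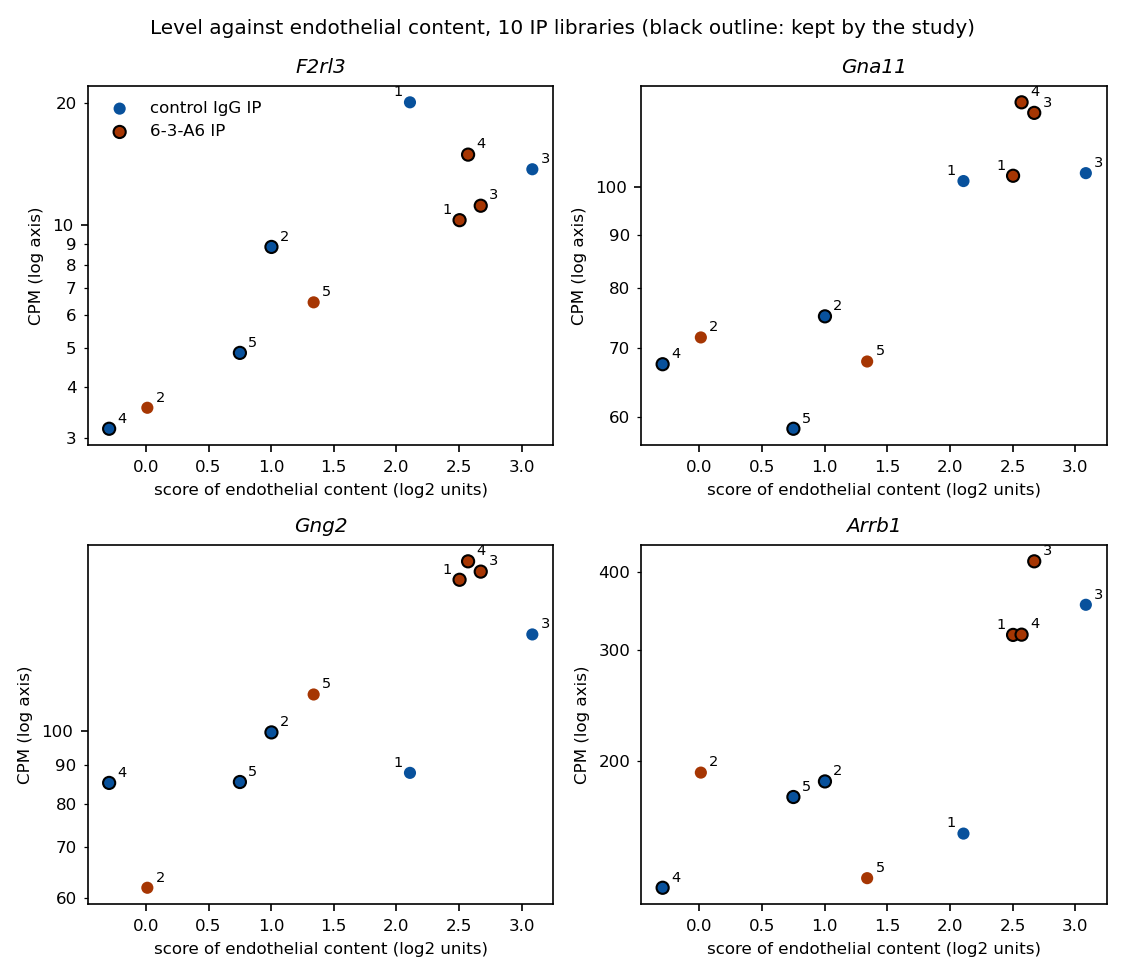
CPM on a log axis against the score of endothelial content (log2 units) in the 10 IP libraries for F2rl3, Gna11, Gng2 and Arrb1, with replicate numbers beside the points and black outlines for the 6 libraries kept by the study. The kept 6-3-A6 libraries have scores of 2.50 to 2.67 and the kept control IgG libraries scores of -0.29 to 1.00, and control IgG 1 and 3, set aside, lie at 2.11 and 3.09.

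The genes most like each member over the 10 IP libraries, out of 13602, were taken by Pearson's r of log2 CPM as a description. For Arrb1 they were Ttc7b and Afap1l1 (both 0.991) and Btbd3 (0.982), and for Gna11 Gnb1 (0.989), Rnf185 (0.986) and Fam43a (0.981), the first being a G beta subunit. For F2rl3 they were Tmc6 (0.979), Sat1 (0.976) and Pdgfb (0.972), and for Gng2 Pabpc4l (0.957), Tacc1 (0.954) and Zfp979 (0.951). Gna13 came nearest to Elac1 (0.984), Tnfrsf23 (0.957) and Arrdc3 (0.952), and Gna12 to Tmem140 (0.975), Pgbd1 (0.935) and Nod1 (0.924). F2r was most like Xxylt1 (0.963), Fitm2 (0.956) and Abhd16a (0.956), F2rl1 most like Insig1 (0.958), Hscb (0.941) and Siva1 (0.938), and Gnaq most like Clpb (0.944), Itga3 (0.904) and Notch3 (0.878). Between members the highest r were 0.848 for Gna13 and Arrb1, 0.822 for F2rl3 and Gna11 and 0.803 for Gna12 and Gna13, and the lowest was -0.678 for Gnaq and Gng2.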

How the data were processed

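Input and IP RNA of 10 Py8119 tumors of RiboTagEC mice was sequenced as single reads. Raw counts on genes in 20 libraries were deposited by the authors. The submitters' processing notes name STAR 2.7.4a, featureCounts 2.0.1 and 1.5.2 and DESeq2, with builds mm10 and GRCh38. The count table gives GRCm39 positions, its lengths equal whole gene spans, and strandedness and the treatment of shared reads are not given in the sources used here. A second deposited table gives the signal of 6 IP libraries under the same names, which is proportional to their raw counts for 100% of genes with counts, and these 6 were taken as the libraries kept. Fold changes, p-values and test statistics of that table were not used. Groups follow the sample titles, since the description field gives some 6-3-A6 samples the other fraction, and the endothelial markers separate the fractions by title.

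Genes were filtered with filterByExpr and tested with the quasi-likelihood F test of edgeR 4.0.16 (TMM, Benjamini-Hochberg over all genes tested, threshold 0.05), also in the 6 libraries, in all 10 IP or input libraries, and over 20 libraries with a treatment term or with the interaction. The standard error is the absolute log2 fold change divided by the square root of F. CPM values were scaled by TMM factors over 20 libraries, with a prior count of 2 for log2 CPM. Permutation tests were 2-sided, exact for group scores and with 100000 resamples for correlations, adjusted over 13602 genes. Every pair of replicates differed by more than sampling noise (lowest median chi-square 2.24 against 0.455). Pipelines were tested on simulated counts. Of 2-fold changes, 74 of 98 were recovered in IP over input and 35 of 105 in the 6 libraries. Over 10 IP libraries it was 40 of 103, in input 28 of 103 and in the interaction 7 of 104. Of 4-fold changes, 98 of 102, 85 of 95, 87 of 97, 79 of 97 and 57 of 96 were recovered in the same order. A gene without a call may therefore still differ by 2-fold.

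Input and IP with the same treatment and number come from the same homogenate. Deviations of these pairs from their group means correlated between -0.08 and 0.70, and the tumor was tried as a replicate block. Alternatives were DESeq2 1.42.0, its size factors, no filter, each library or tumor left out, blocks, the score as a covariate and the 6 tumors of the study.

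Members, lists and tests were chosen with earlier results of these data known, including the calls of Arrb1, Gna11 and Gng2. All members are named. Of each related list the called genes are named where at most 4 were called, otherwise the 2 largest and 2 smallest, and for each member the 3 genes of highest r. Exceptions are stated, and single genes of the G12 effector list and 1 Gq effector are not reported here.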

Additional observations from a re-analysis of the deposited data

Results flagged for a closer look

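Of 36 gene and group combinations, 3 held a library whose gap to the nearest other library exceeded the critical share of 0.71 of the range of 5 libraries, where chance gives about 1 in 20. F2r was 108.0 CPM in 6-3-A6 input 1, against 61.2 to 72.9 CPM in the other 6-3-A6 input libraries (gap 0.751 of the range). F2rl3 was 0 in 6-3-A6 input 4, against 0.502 to 0.638 CPM in the others (0.786), but with this library at the 0.273 CPM that 3 counts would give the share is 0.627, under the critical value, and this library also held the lowest input values of Gna11, Gna12 and Arrb1. Arrb1 was 354.5 CPM in control IgG IP 3, against 126 to 185 CPM in the other control IgG IP libraries (0.738), and this library had the highest endothelial score, 3.09. Whether these values share a cause with the libraries' composition was not tested.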

How the results depend on the processing

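The calls of F2rl3, Gna11, Gng2 and Arrb1 in IP over input held under every alternative and with each tumor left out. The number of genes called was 5597, 3347 in the 12 libraries of the 6 tumors of the study, where Gnaq lost its call (adjusted p = 0.191), and 4753 to 5799 with 1 tumor left out. With the replicate block for the tumor it was 7120, and the same 5 members were called. In the 6 kept IP libraries 646 genes were called, 1251 by DESeq2, 1459 without the filter and 0 with the endothelial score, and between 9 and 653 with 1 library left out, 9 without 6-3-A6 IP 3, 161 without 6-3-A6 IP 4, 188 without control IgG IP 4 and 345 without 6-3-A6 IP 1. The score also reversed F2r (-0.048), F2rl1 (1.15) and F2rl3 (-0.91), none of them called; the cause was not tested. Over 10 IP libraries, in input and for the interaction 0 genes were called under every alternative run. Other reversals were of uncalled values, Gna12 in input without the filter (-0.013), F2rl1 (0.12), Gna12 (-0.062) and Arrb1 (-0.11) in input with the replicate block, and in the interaction Gnaq without the filter (0.0093) and F2rl1 (-0.13) and F2rl3 (-0.060) with the tumor block. Numbers shared across treatments mark no shared animal, and their deviations correlated between -0.19 and 0.37 in IP and between -0.33 and 0.24 in input, so this block is given here only.

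With 1 library or tumor left out, log2 fold changes that changed sign, none of them called, ranged from -0.10 to 0.23 for F2r and from -0.27 to 0.23 for F2rl1 in the kept libraries, from -0.28 to 0.13 for F2rl1 and -0.35 to 0.27 for F2rl3 in 10 IP libraries, from -0.56 to 0.55 for F2rl1, -0.20 to 0.0037 for Gnaq, -0.20 to 0.14 for Gna12, -0.091 to 0.10 for Gna13 and -0.16 to 0.23 for Arrb1 in input, and from -0.43 to 0.42 for F2rl1, -0.45 to 0.34 for F2rl3 and -0.10 to 0.13 for Gnaq in the interaction. Depth limits F2rl3 in input (85 counts), and overlap with other genes may limit F2rl2, Gna12 and, over smaller shares of their exons (20.4% and 6.63%), Gng2 and Gna13.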
